A study of Caenorhabditis elegans with 12 samples.

Results

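The subunits of the proteasome were examined in RNA-seq of whole day 1 adult *C*. *elegans*. The members were the genes whose name in the deposited tables starts with pas-, pbs-, rpt- or rpn-, and 32 of the 12443 genes that are in all 3 tables met this rule. They were 7 *pas* genes (the alpha ring of the 20S core), 7 *pbs* genes (its beta ring), 6 *rpt* genes (the ATPases in the base of the 19S regulatory particle) and 12 *rpn* genes. Of the *rpn* genes, *rpn-1*, *rpn-2* and *rpn-10* were placed in the base and the other 9 in the lid. The core thus had 14 members and the regulatory particle 18. They lie on 5 chromosomes, with 10 on chromosome I, 7 on II, 7 on III, 3 on IV and 5 on V. A further subunit, *rpn-13*, stands in the tables under its clone name C56G2.7, so the rule did not take it, and it is described with the proteasome-associated genes.

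The 4 groups were *mdt-15(-)* mutants at 15 °C, *mdt-15(-)* mutants at 25 °C, wild type at 15 °C and wild type at 25 °C, with 3 biological repeats each and 12 libraries in all. The mutants (strain IJ235) carry *tm2182*, a reduction-of-function allele of *mdt-15*, which encodes a Mediator subunit that acts as a transcriptional coactivator, and Bristol N2 is the wild type. All worms were grown on OP50 bacteria at the stated temperature from the first larval stage to day 1 of adulthood, so temperature covers development as well as adult life. The study asked how gene expression in these mutants differs between low and high temperature. The values used are log2 fold changes with their moderated t and p from limma on voom-transformed values, that is, on log2 cpm (read counts scaled to library size). They hold no value per library, so depth per library is unknown, and each group level below is an estimate from the average log2 cpm and the fold changes. The targeted gene *mdt-15* itself had a log2 fold change of -0.997 (standard error 1.66) at 15 °C and of -1.57 (standard error 1.88) at 25 °C, and neither value is large enough beside its error to check the labels.

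The 26S proteasome degrades proteins tagged with ubiquitin in the cytosol and the nucleus. Its barrel-shaped core particle carries the proteolytic sites inside the beta rings, while the alpha rings gate the entrance. The regulatory particle caps the barrel, where the base unfolds substrates with its ATPases and binds ubiquitin, and the lid removes ubiquitin chains. In *C*. *elegans*, proteasome activity is known for its part in protein quality control and ageing, and in worms with reduced proteasome function the transcription factor SKN-1A raises the expression of subunit genes.

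Proteasome genes were among the more abundant transcripts. Their average expression lay between 11.4 cpm (*rpn-6.2*) and 641 cpm (*pas-3*). Per kilobase of exon, their median average level was 7.28 on the log2 scale, with 2.57 for all 12408 genes that have an annotated length, 6.56 for the 8 genes of the cytosolic chaperonin and 12.6 for 78 cytosolic ribosomal protein genes. On that per-kilobase scale the core rings were highest, with a median level of 7.98 for the alpha ring (6.67 to 9.49) and 8.06 for the beta ring (7.19 to 8.96). The ATPases had a median level of 7.22 (6.39 to 7.32) and the lid one of 6.47 (2.87 to 7.90). Of the base non-ATPases, *rpn-2* and *rpn-1*, the large scaffold proteins of the base, had 4.09 and 4.55, whereas the ubiquitin receptor gene *rpn-10* had 7.64. The paralogs *rpn-6.1* and *rpn-6.2* differed in level, with 5.37 and 2.87 on the log2 per-kilobase scale, and how reads that fit both were counted is not known here. Differences of level between genes carry no test here, since the tables give errors only for differences between groups.

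Over the members, the median estimated level was 7.59 log2 cpm in *mdt-15(-)* at 15 °C and 7.57 in *mdt-15(-)* at 25 °C. It was 7.88 in wild type at 15 °C and 7.78 in wild type at 25 °C. The level in wild type at 15 °C was the highest of the 4 estimates for 25 of 32 members. This count was not set beside a share over all genes, and it follows from the fold changes given below.

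**Figure D1:**
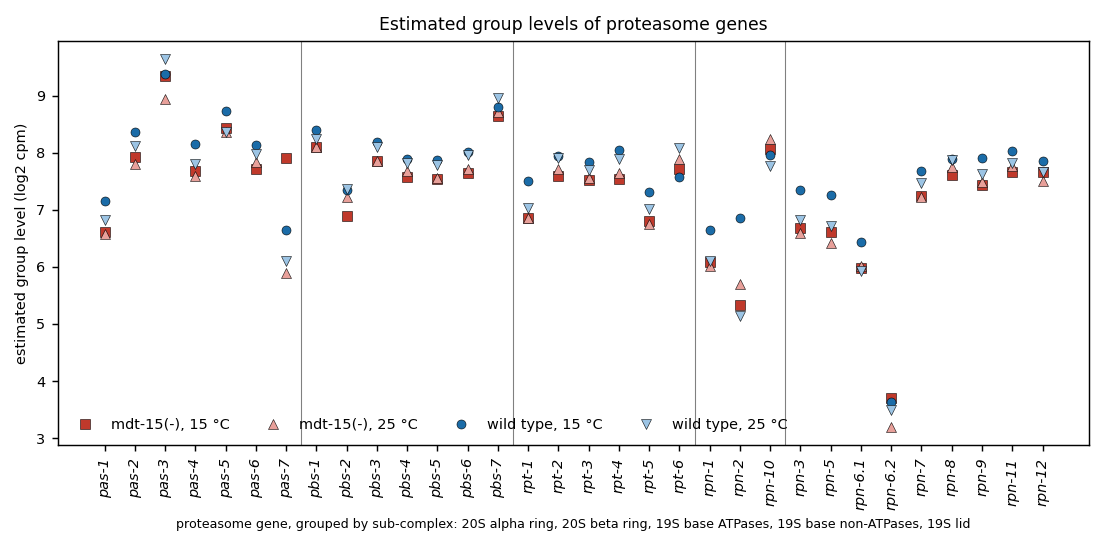
Estimated level (log2 cpm, vertical axis) of each of the 32 proteasome genes in the 4 groups, ordered by sub-complex from left to right (red squares, *mdt-15(-)* at 15 °C, pink triangles, *mdt-15(-)* at 25 °C, dark blue circles, wild type at 15 °C, light blue triangles, wild type at 25 °C). Points are estimates for 3 libraries a group and carry no error bars; *pas-7* at 7.90 in *mdt-15(-)* at 15 °C and *rpn-2* at 6.85 in wild type at 15 °C stand off from their other groups.

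The errors were uneven between members and set what could be seen. Standard errors had a median of 0.21 for *mdt-15(-)* against wild type at 15 °C, below the 0.44 over all genes in that table. Over the 1762 genes whose average expression lay in the range of the members other than *rpn-6.2* the median was 0.34. In 5 members they exceeded 0.4, namely 0.97 for *rpn-2*, 0.84 for *pas-7*, 0.64 for *pas-3*, 0.52 for *rpn-10* and 0.43 for *pbs-7*. *pbs-7* shares 70 exonic bases with *K07A12.5* on its own strand, where reads of the pair cannot be told apart by strand. Whether the counting used strand is not known here, which bears on overlaps with genes on the other strand, such as *rpn-7* with *nemt-1* (394 bases), *rpt-4* with *rpoa-49* (103) and *pbs-4* with *mrrf-1* (73). The 5 genes of large error held the most extreme values in several comparisons below, and medians without them are given where they matter.

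The first comparison asks what the mutation did at low temperature. At 15 °C, 28 of 32 proteasome genes were below 0 on the log2 fold change scale in *mdt-15(-)* relative to wild type and 4 were above 0, where 51.9% of all genes were above 0. Their median log2 fold change was -0.37, against 0.04 over all genes and -0.10 over the 1762 genes whose average expression lay in the range of the members other than *rpn-6.2*. At the study's threshold (fold change > 1.5 and an unadjusted p below 0.05) 2 members fell, *rpn-3* and *rpt-1*, which is 2 of 32 beside 5.76% of all genes, a share near this background, and 0 rose, where 17.3% of all genes did. With the fold limit dropped, 11 of 32 members were lower at p below 0.05, beside 7.43% of all genes, and 0 were higher, where 17.7% of all genes were. Among the 1762 genes of like expression, 202 were lower and 122 higher at p below 0.05 with no fold limit. At the study's threshold 129 of these 1762 genes fell and 109 rose. No member had a fold change > 1.5 with an adjusted p below 0.05 in limma, beside 7.09% of all genes in either direction, and over the members the smallest adjusted p was 0.108 (*pas-4*). The 11 genes came from every class but the base non-ATPases: *pas-2*, *pas-4* and *pas-6*, *pbs-2* and *pbs-6*, *rpt-1*, *rpt-4* and *rpt-5*, and *rpn-3*, *rpn-7* and *rpn-9*. The count of 11 depended on the scale. It was 5 (*pas-2*, *pas-4*, *pas-6*, *pbs-2* and *rpt-4*) after fold changes were centred on the median of their bin, with all genes split into 10 bins of average expression, and 14 after centring on the median of all genes.

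*rpn-3*, which encodes a scaffold subunit of the lid (chromosome III, 8447353 to 8449346, plus strand, 4 exons), had an estimated level of 6.68 log2 cpm in *mdt-15(-)* and 7.35 in wild type at 15 °C. Its log2 fold change was -0.67 (standard error 0.29, adjusted p = 0.186), with an unadjusted p of 0.0439 in limma's test. *rpt-1*, a base ATPase (chromosome V, 11980534 to 11982397, minus strand, 5 exons), had 6.85 log2 cpm in *mdt-15(-)* and 7.50 in wild type, a log2 fold change of -0.66 (standard error 0.29, adjusted p = 0.186), with an unadjusted p of 0.0440. Both genes lay just past the threshold, and the lid gene *rpn-5* lay just short of it, with a log2 fold change of -0.65 (standard error 0.30) and an unadjusted p of 0.0553 in limma's test. Neither call was kept with an adjusted p, a fold limit of 2, centring by expression, standard errors 1.2 times as large or 8 degrees of freedom.

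The alpha ring at 15 °C had a median of -0.42 on the log2 scale, and 6 of its 7 genes lay below 0. *pas-4* had 7.68 log2 cpm in *mdt-15(-)* and 8.15 in wild type, a log2 fold change of -0.46 (standard error 0.16, adjusted p = 0.108). *pas-5* had a log2 fold change of -0.30 (standard error 0.17, adjusted p = 0.303), and *pas-1* was the lowest of the ring at -0.54 (standard error 0.26, adjusted p = 0.222). *pas-7* stood apart at 1.25, with 7.90 log2 cpm in *mdt-15(-)* and 6.65 in wild type, but with a standard error of 0.84 its 95% confidence interval ran from -0.61 to 3.11.

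The beta ring had the smallest SD over genes of the classes (0.09), with all 7 genes below 0. Its log2 fold changes lay between -0.46 (*pbs-2*) and -0.15 (*pbs-7*), with a median of -0.32. The SD of 0.63 in the alpha ring includes *pas-7* and *pas-3*, whose errors were large, and the other alpha-ring genes lay between -0.54 and -0.30. The catalytic subunits of the beta ring are *pbs-1* (caspase-like), *pbs-2* (trypsin-like) and *pbs-5* (chymotrypsin-like). *pbs-2* had 6.88 log2 cpm in *mdt-15(-)* and 7.34 in wild type (log2 fold change -0.46, standard error 0.16, adjusted p = 0.108). *pbs-1* had 8.10 in *mdt-15(-)* and 8.40 in wild type (-0.30, standard error 0.20, adjusted p = 0.394). *pbs-5* had 7.53 in *mdt-15(-)* and 7.87 in wild type (-0.34, standard error 0.18, adjusted p = 0.273). Of these 3 genes, *pbs-2* alone was lower at p below 0.05, and the intervals of the others included 0.

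In the regulatory particle, the median log2 fold change was -0.45, against -0.33 in the core, with 15 of its 18 genes and 13 of the 14 core genes below 0. The ATPases had a median of -0.42, from *rpt-1* at -0.66 to *rpt-6* at 0.13 (standard error 0.35), and *rpt-3* had -0.32 (standard error 0.21, adjusted p = 0.370). The lid had a median of -0.44 with 8 of 9 genes below 0. In it, *rpn-9* had 7.43 log2 cpm in *mdt-15(-)* and 7.91 in wild type (log2 fold change -0.48, standard error 0.19, adjusted p = 0.155), *rpn-11*, the deubiquitinase of the lid, had -0.37 (standard error 0.18, adjusted p = 0.228), and *rpn-12* had -0.21 (standard error 0.28, adjusted p = 0.674). *rpn-6.1*, whose product is known in *C*. *elegans* to promote proteasome activity and longevity, had 5.98 log2 cpm in *mdt-15(-)* and 6.44 in wild type, a log2 fold change of -0.46 (standard error 0.34, adjusted p = 0.429). Its paralog *rpn-6.2* was the highest of the lid at 0.06 (standard error 0.17), with 3.70 log2 cpm in *mdt-15(-)* and 3.63 in wild type. The 3 base non-ATPases ran from *rpn-2* at -1.52 (standard error 0.97) through *rpn-1* at -0.57 (standard error 0.33) to *rpn-10* at 0.11 (standard error 0.52). Without the 5 genes of large standard error the median over the members was -0.42 and 25 of 27 lay below 0.

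At 25 °C the same contrast gave smaller values. Log2 fold changes of *mdt-15(-)* relative to wild type were below 0 for 29 of 32 members, beside 52.8% of all genes, with a median of -0.19, against -0.03 over all genes and -0.09 over genes of like expression. No member fell or rose at the study's threshold in limma's test, where 3.72% of all genes fell and 5.85% rose. With no fold limit, 0 had an unadjusted p below 0.05, where 4.01% of all genes were lower and 6.13% higher. The smallest adjusted p was 0.590 (*pas-2*). Centred within the bins of average expression, the median over the members was -0.07. The alpha ring had a median log2 fold change of -0.21, from *pas-3* at -0.69 (standard error 0.64) to *pas-5* at 0.00 (standard error 0.17). The beta ring had a median of -0.22, from *pbs-6* at -0.24 to *pbs-1* at -0.13, and the ATPases one of -0.19, from *rpt-5* at -0.25 to *rpt-3* at -0.14. In the lid, with a median of -0.16, *rpn-5* was lowest at -0.30 and *rpn-6.1* highest at 0.09, while *rpn-6.2* had -0.29 (standard error 0.18). *rpn-2* at 0.56 (standard error 0.98), *rpn-10* at 0.47 (standard error 0.53) and *rpn-6.1* were the 3 genes above 0, and *rpn-1* had -0.08.

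**Figure D2:**
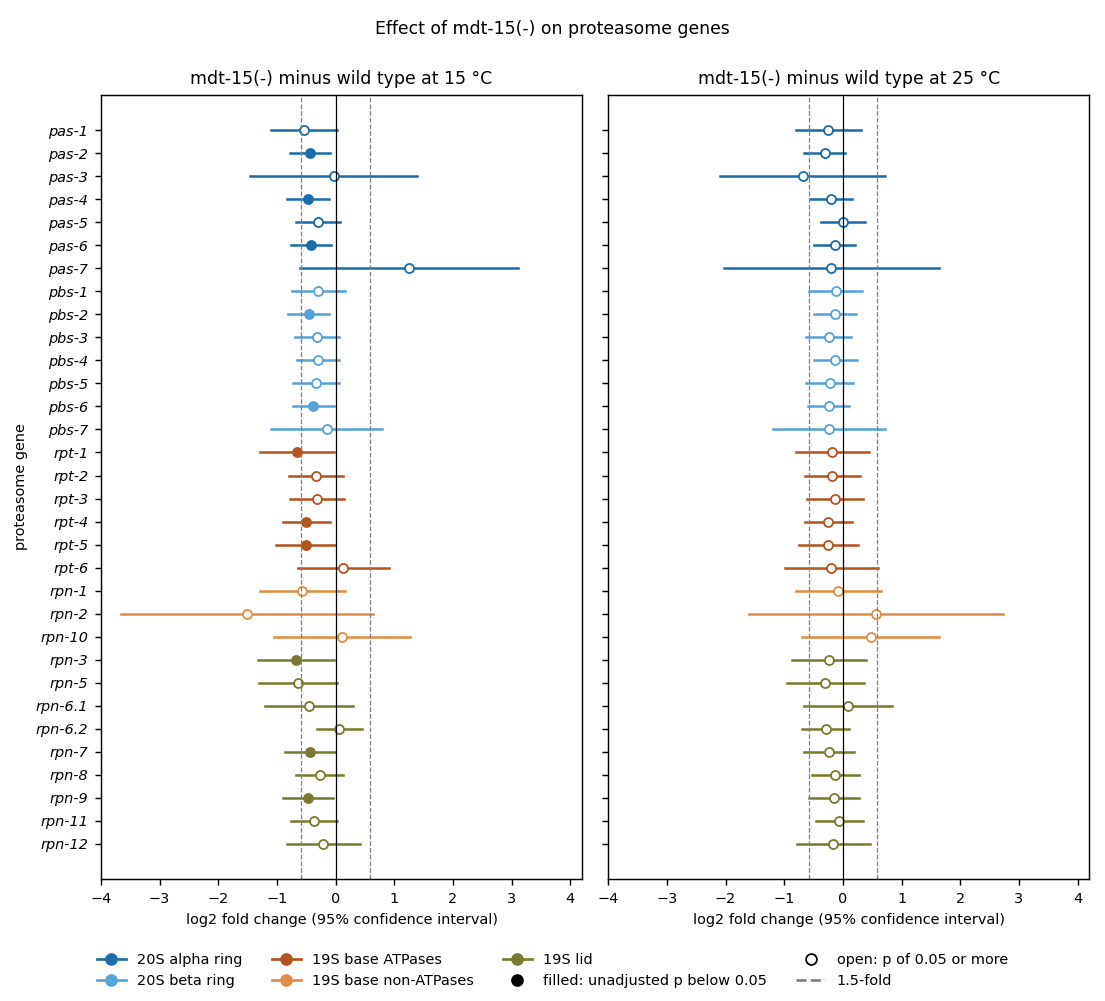
Log2 fold change of *mdt-15(-)* minus wild type with its 95% confidence interval (horizontal axis) for each proteasome gene, at 15 °C (left) and 25 °C (right), coloured by sub-complex; filled points have an unadjusted p below 0.05 and dashed lines mark a fold change of 1.5. At 15 °C 11 points are filled, all below 0, and at 25 °C none is, while *rpn-2*, *pas-7* and *pas-3* have by far the widest intervals.

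Whether the effect of *mdt-15(-)* differed between the temperatures was tested as the effect at 15 °C minus the effect at 25 °C. The median of this difference was -0.23 on the log2 scale, and 27 of 32 members were below 0, where 46.8% of all genes were. No member had an unadjusted p below 0.05 in this test, derived here from limma's fold changes and errors, where 1.67% of all genes were lower and 5.3% higher. The smallest p was 0.160 (*rpn-2*, -2.08, standard error 1.38, adjusted p = 0.800). The next extreme values were *pas-7* at 1.45 (standard error 1.18) and *pas-3* at 0.65 (standard error 0.90). For *rpn-3* the difference was -0.43 (95% confidence interval -1.34 to 0.48), for *rpt-1* -0.47 (-1.36 to 0.42), for *pas-4* -0.25 (-0.76 to 0.25) and for *rpn-6.1* -0.54 (-1.60 to 0.51). The 11 low p-values at 15 °C against 0 at 25 °C therefore do not show, for any single subunit, a different response at the 2 temperatures. For 20 of 32 members the interval of the difference lay within a 2-fold change either way.

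The next comparison asks what temperature did in each genotype. In *mdt-15(-)*, the members showed little net difference between 15 °C and 25 °C, the median being -0.02 on the log2 scale and 13 of 32 above 0, where 51.9% of all genes were. At the study's threshold 1 member, *pas-7*, rose at 15 °C, beside 12.9% of all genes. With no fold limit 2 members were higher, *pas-7* and *rpn-6.2*, beside 13.4% of all genes. *pas-7*, an alpha-ring gene (chromosome II, 10098782 to 10099854, minus strand, 3 exons), had an estimated level of 7.90 log2 cpm at 15 °C and 5.90 at 25 °C in the mutant. Its log2 fold change was 2.01 (standard error 0.84, adjusted p = 0.210) with an unadjusted p of 0.0370, from the test derived here. The call was lost with standard errors 1.2 times as large and with the variance taken as the sum of all 3 comparisons' (unadjusted p of 0.192). *rpn-6.2*, the low-expressed lid paralog (chromosome III, 8999817 to 9001999, minus strand, 6 exons), had 3.70 at 15 °C and 3.20 at 25 °C, a log2 fold change of 0.50 (standard error 0.18, adjusted p = 0.138) with an unadjusted p of 0.0180, which became 0.132 with the summed variance. Its paralog *rpn-6.1* had 5.98 at 15 °C and 6.02 at 25 °C, a log2 fold change of -0.04 (standard error 0.34).

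The remaining members in *mdt-15(-)* stayed between -0.37 (*rpn-2*, standard error 0.97) and 0.39 (*pas-3*, standard error 0.63). All 7 beta-ring genes were at or below 0, with a median of -0.07 and *pbs-2* lowest at -0.34 (standard error 0.16, adjusted p = 0.267). The ATPases ran from *rpt-6* at -0.19 to *rpt-5* at 0.05. For 27 of 32 members the 95% confidence interval of the temperature effect in the mutant lay within a 2-fold change.

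In wild type, 28 of 32 members had a log2 fold change above 0 at 15 °C relative to 25 °C, beside 53.2% of all genes. Their median was 0.19, against 0.04 over all genes and -0.06 over genes of like expression, and it was 0.29 centred within the bins of average expression and 0.30 centred within bins of expression and length. None passed the study's threshold in limma's test, where 3.19% of all genes rose and 6.18% fell. With no fold limit, 0 had an unadjusted p below 0.05, where 3.84% of all genes were higher and 6.54% lower. The smallest p was 0.0581, for *pas-4* (8.15 log2 cpm at 15 °C and 7.80 at 25 °C, log2 fold change 0.35, standard error 0.16, adjusted p = 0.512), followed by *pas-5* (0.36, standard error 0.17, adjusted p = 0.525). The lid had all 9 genes above 0, from *rpn-8* at 0.01 to *rpn-5* at 0.55, with *rpn-6.1* at 0.50 (standard error 0.34, adjusted p = 0.726), *rpn-9* at 0.27, *rpn-12* at 0.19 and *rpn-6.2* at 0.14. In the base, *rpn-2* was highest at 1.71 (standard error 0.98) and *rpt-1* was the highest ATPase at 0.47 (standard error 0.28), whereas *rpt-6* was lowest at -0.51 (standard error 0.36). The alpha ring had a median of 0.33, from *pas-3* at -0.26 to *pas-7* at 0.56, and the beta ring a median of 0.07, from *pbs-7* at -0.16 to *pbs-1* at 0.17. The catalytic genes *pbs-2* and *pbs-5* were at -0.02 (standard error 0.16) and 0.09 (standard error 0.18). The wild-type 15 °C libraries enter both this comparison and that of *mdt-15(-)* at 15 °C, with opposite sign, so the higher values here and the lower values there are not independent of each other.

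**Figure D3:**
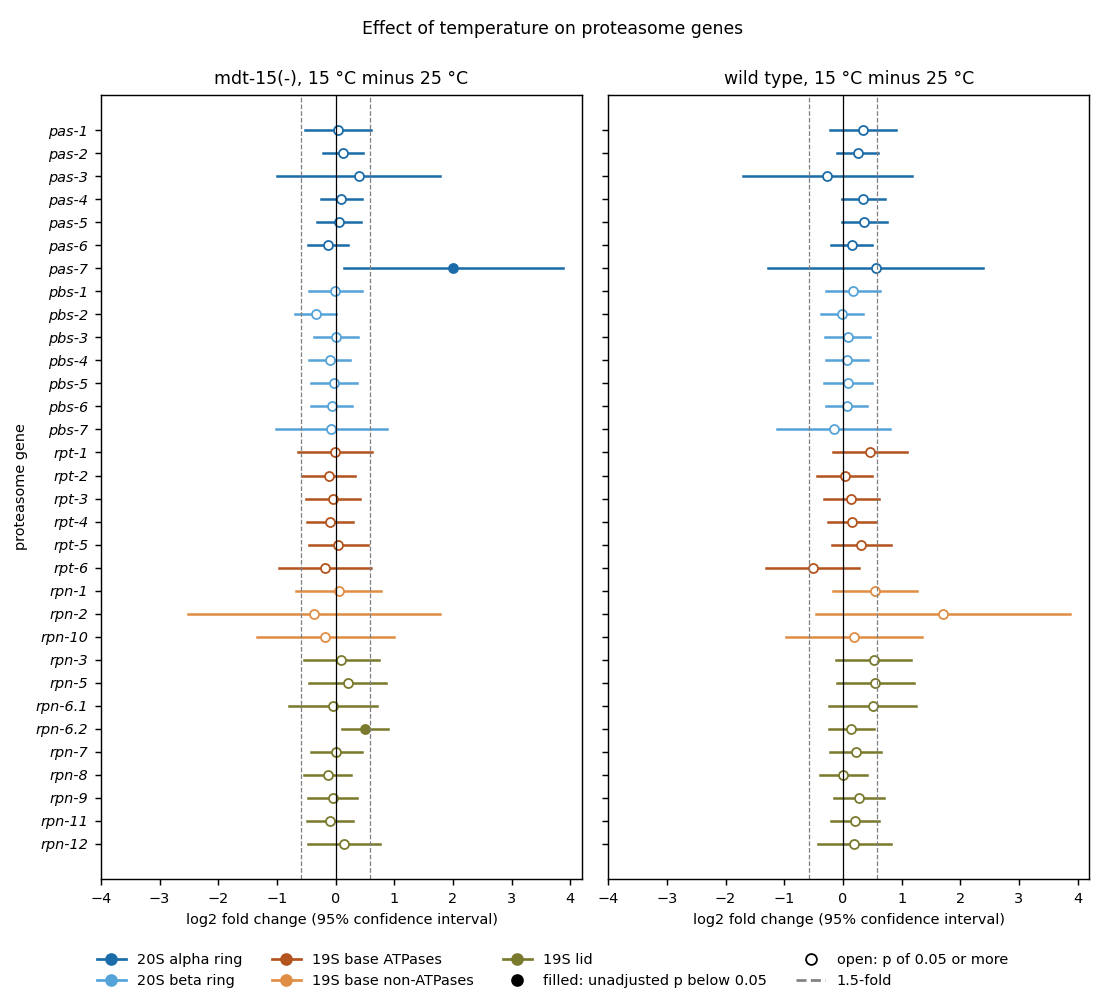
Log2 fold change at 15 °C minus 25 °C with its 95% confidence interval (horizontal axis) for each proteasome gene in *mdt-15(-)* (left) and wild type (right), with the same colours, fills and dashed lines as for the mutant effect. In *mdt-15(-)* points lie on both sides of 0 and *pas-7* (2.01) and *rpn-6.2* (0.50) are filled, and in wild type 28 of 32 points lie above 0 and none is filled.

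Transcript length moved with the difference at 15 °C. Over the 32 members, the Spearman correlation across genes of exonic length with the log2 fold change of *mdt-15(-)* at 15 °C was -0.48, and over the 1762 genes of like expression it was -0.32. These genes come from the same libraries and are not independent replicates. The 13 members of up to 1000 bases, most of them core subunits, had a median log2 fold change of -0.30, beside 0.05 for 839 genes of that length and like expression. The 11 members of over 1000 and up to 1500 bases had -0.34 beside -0.16 for 465 genes, and the 6 members of over 1500 and up to 2000 bases had -0.55 beside -0.24 for 242 genes. *rpn-1* and *rpn-2*, both over 3000 bases, had a median of -1.04 beside -0.37 for 54 genes. The median of the members was below that of genes of like length and expression in each of these classes. Length and value did not go together in every sub-complex. The alpha ring (842 to 989 bases) and the ATPases (1355 to 1513 bases) both had a median of -0.42. Whether length plays a part in the lower median of the regulatory particle than of the core was not tested. At 25 °C the correlation over the members was 0.06, and for temperature in wild type it was 0.40. Centred within bins of average expression and these length classes, the median over the members was -0.33 at 15 °C and -0.06 at 25 °C.

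**Figure D4:**
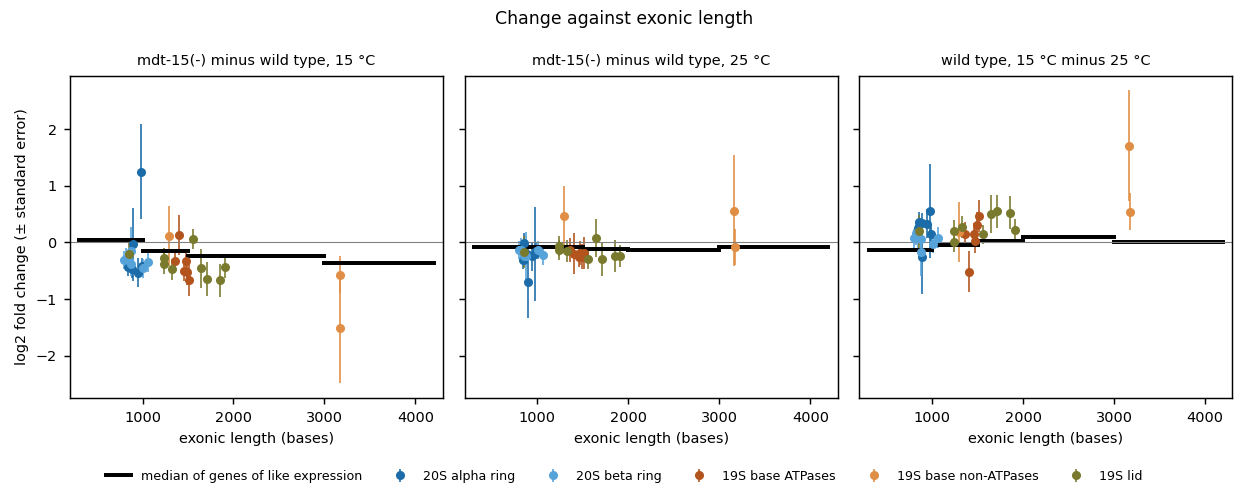
Log2 fold change (vertical axis, bars are standard errors) against exonic length in bases for the 32 proteasome genes, in *mdt-15(-)* minus wild type at 15 °C (left) and 25 °C (middle) and in wild type at 15 °C minus 25 °C (right); black lines are medians of genes of like expression in 5 length classes. At 15 °C the black line steps down from 0.05 in the shortest class to -0.37 in the longest, and most members lie below it.

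Markers of several cell types differed in *mdt-15(-)* at 15 °C. In whole worms, fewer cells of a type and less RNA per cell cannot be told apart. All 4 oocyte markers (*rme-2*, *puf-5*, *oma-1* and *oma-2*) were below 0, their log2 fold changes having a median of -0.78. Their summed level was 9.01 log2 cpm in *mdt-15(-)* and 9.81 in wild type. At the study's threshold *rme-2* (adjusted p = 0.0771 in limma) and *puf-5* (adjusted p = 0.0998) fell. All 5 germline markers were below 0 (median -0.76, summed level 9.06 in *mdt-15(-)* and 9.39 in wild type) and *nos-2* fell (-0.76, adjusted p = 0.0264). All 4 genes listed for the embryo (*skr-7*, *pie-1*, *cbd-1* and *chs-1*) were below 0 as well (median -0.91, summed level 7.77 in *mdt-15(-)* and 8.83 in wild type). Of these, *cbd-1* (-1.14, standard error 0.41, adjusted p = 0.117 in limma) and *chs-1* (-3.98, standard error 1.35, adjusted p = 0.102) fell at the study's threshold. Whether this list marks other cells than the germline and oocyte lists was not tested, so the 3 lists are not separate evidence. Of 5 sperm markers, the 4 that the table lists (*msp-3*, *msp-10*, *gsp-3* and *gsp-4*) were above 0, with a median of 1.73 and a summed level of 8.77 in *mdt-15(-)* and 7.05 in wild type. Of these, *gsp-3* (adjusted p = 0.108 in limma) and *gsp-4* (adjusted p = 0.0367) rose at the study's threshold. All 4 body wall muscle markers were above 0 (median 0.60) and *myo-3* rose (1.31, adjusted p = 0.0169). The 3 neuron markers listed were above 0 (median 0.34) and *unc-64* rose (0.88, adjusted p = 0.0820). The 4 hypodermis and cuticle markers had a median of 0.93 and 0 were called. The 5 intestine markers had a median of 0.04, from *vit-2* at -0.59 to *elt-2* at 0.88, and *elt-2* rose (adjusted p = 0.161 in limma). At 25 °C the germline, oocyte and embryo medians were -0.28, -0.25 and -0.17, and the sperm markers had -0.59. In *mdt-15(-)* at 15 °C relative to 25 °C, where *rpn-6.2* was higher, all 4 sperm markers rose, with a median of 2.45. In *mdt-15(-)* relative to wild type at 15 °C, where the sperm markers had a median of 1.73, *rpn-6.2* had 0.06 (standard error 0.17). The part of these markers in the proteasome values was not tested.

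Among the listed genes that work with the proteasome, none passed the study's threshold. Of 5 associated genes, *rpn-13* (listed as C56G2.7), a ubiquitin receptor of the base, had a log2 fold change of -0.53 (standard error 0.17, adjusted p = 0.0932) in *mdt-15(-)* at 15 °C. *psme-3* (listed as Y66D12A.9), which encodes a proteasome activator, had -0.48 (standard error 0.16, adjusted p = 0.0945). Both were lower at p below 0.05 without reaching 1.5-fold, and at 25 °C they had -0.22 and -0.34. The deubiquitinase genes *ubh-4* (-1.07, standard error 0.63) and *usp-14* (-0.24, standard error 0.28) and the lid factor *dss-1* (0.31, standard error 0.53) had p-values above 0.05.

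In the SKN-1A pathway, which in worms raises subunit expression when proteasome function is low, 0 of 5 genes passed the study's threshold in any of the 5 comparisons. At 15 °C in *mdt-15(-)*, *ddi-1* (listed as C01G5.6), the protease that activates SKN-1A, had a log2 fold change of -0.40 and was lower at p below 0.05 without reaching 1.5-fold (standard error 0.18, adjusted p = 0.195). *skn-1* had -0.66 (standard error 0.67), *sel-1* -0.64 (standard error 0.47), *sel-11* -0.59 (standard error 0.57) and *png-1* 0.21 (standard error 0.25). Of the genes for CDC-48, the ATPase that extracts ubiquitinated proteins, and its cofactors, 0 of 5 passed, with *cdc-48.1* at -0.61 (standard error 0.28, adjusted p = 0.214) and *cdc-48.2* at -0.14 (standard error 0.18). The cofactor genes lay on both sides of 0 with large errors. They ran from *npl-4.2* at -2.54 (standard error 1.24) through *npl-4.1* at 0.62 (standard error 2.93) to *ufd-1* at 2.30 (standard error 1.25). None of the 3 genes of ubiquitin supply and none of the 5 measured genes of the COP9 signalosome, a complex related to the lid, passed in any comparison. These had medians of -0.71 and -0.32 in *mdt-15(-)* at 15 °C.

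Beside these, the 8 genes of the cytosolic chaperonin, another large complex of protein homeostasis, had a median log2 fold change of -0.60 in *mdt-15(-)* at 15 °C. All 8 were below 0, and 2 fell at the study's threshold, *cct-1* (-0.76, standard error 0.18, adjusted p = 0.0324) and *cct-2* (-1.10, standard error 0.33, adjusted p = 0.0704). At 25 °C their median was -0.32 and 0 were called. The 78 ribosomal protein genes had a median of -0.10 at 15 °C and of -0.23 at 25 °C, where 74 of 78 were below 0. Thus the chaperonin genes had a lower median than the proteasome genes at both temperatures, and the ribosomal protein genes a higher one at 15 °C and a lower one at 25 °C. In wild type at 15 °C relative to 25 °C, 7 of the 8 chaperonin genes were above 0 (median 0.33), and 36 of the 78 ribosomal protein genes were (median -0.05). The effect of *mdt-15(-)* at 15 °C minus that at 25 °C was below 0 for 7 of the 8 chaperonin genes (median -0.31). It was below 0 for 23 of the 78 ribosomal protein genes (median 0.11). No test was made between the complexes.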

How the data were processed

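Paired-end reads were mapped by the authors with HISAT2 2.0.5 (ce11), who used StringTie 1.3.3 and excluded genes under 1 cpm. limma 3.24.15 (voom) and edgeR 3.10.5 were then used. The deposited values are log2 fold changes, average log2 expression, moderated t scores and p-values, in 3 tables that come from 2 fits. Signs were turned to *mdt-15(-)* minus wild type and 15 °C minus 25 °C. Standard errors are log2 fold change over t, on 10.4 degrees of freedom. The temperature effect in *mdt-15(-)* and the difference of effects were derived from the 3 tables and tested two-sided with Benjamini-Hochberg adjustment over 12443 genes. The variance of that temperature effect is exact only where all 3 tables come from the same fit. The formulas were checked on simulated data that assumed the same fit, so the check could not show what the 2 fits change. Group levels are approximate, since voom weights libraries. Coordinates are from Ensembl release 115 (WBcel235). Genes of like expression have an average of 5.76 to 9.32 log2 cpm. Named genes are members called in any comparison, catalytic subunits, those the study measured by qRT-PCR, extremes of each sub-complex, *rpn-6* paralogs and called genes of the pathway lists (none was). Others, markers included, were chosen after their values were seen. Members and lists were chosen with earlier results of these data known. Alternatives tried were adjusted p, no fold limit or one of 2, centring, an expression minimum, larger errors, fewer degrees of freedom, another variance and fewer members. Python 3.11.15, numpy 2.4.6, pandas 2.3.3 and scipy 1.17.1 were used.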

Additional observations from a re-analysis of the deposited data

How the results depend on the processing

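The 2 calls in *mdt-15(-)* at 15 °C became 0 with an adjusted p, a fold limit of 2, centring by expression, standard errors 1.2 times as large, 8 degrees of freedom, or centring by expression and exonic length, 11 with no fold limit, and 3 centred on all genes, which added *rpn-5*. The count of 11 became 0 with an adjusted p, 5 with centring by expression or with standard errors 1.2 times as large, 7 with 8 degrees of freedom, and 14 centred on all genes. With centring by expression and length it was 5 as well, but of another set. These were *pas-1*, which was not among the 11, and *pas-2*, *pas-4*, *pas-6* and *pbs-6*. All 5 are genes of the core, so no gene of the regulatory particle was left. The single call in *mdt-15(-)* between temperatures became 0 with an adjusted p, standard errors 1.2 times as large, the variance as the sum of all 3, or without members of standard error above 0.4, and 2 with no fold limit or with centring by expression and length. For the limits, the larger errors, the summed variance and the fewer degrees of freedom this follows from their construction. Leaving out members of large error removes *pas-7*, the gene called, so that count had to become 0. Centring subtracts a median from each value. In *mdt-15(-)* relative to wild type at 15 °C this median was -0.07 in the expression bin of 28 members and 0.04 over all genes. The cause of these medians was not tested. Centring by expression and length and leaving out members of large error were chosen after seeing the data. In the other comparisons the counts stayed at 0 under each alternative run with a p of 0.05. The members' median kept its sign under each alternative, except in *mdt-15(-)* between temperatures, where it was 0.05 centred by expression and 0.06 centred by expression and length.

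No paired analysis was possible because the tables hold no value per library. For the same reason leaving out each replicate was not run, and whether 1 library decides a value was not tested. The p-values set each difference against the spread between these biological repeats, as moderated over genes by limma. Depth per library is unknown.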
